A study of Rattus norvegicus with 4 samples.

Results

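AU-rich element binding proteins recognise stretches rich in A and U in the 3′ untranslated regions of short-lived mRNAs, among them cytokine, growth factor and immediate early mRNAs. In mammals they act in opposing ways. The CCCH zinc finger proteins ZFP36 (tristetraprolin), ZFP36L1 and ZFP36L2 recruit the CCR4-NOT deadenylase and speed decay, KHSRP (KSRP) recruits the exosome, HNRNPD (AUF1) can favour decay or stability depending on its isoform and the mRNA, ELAVL1 (HuR) mostly stabilises, and TIA1 and TIAL1 (TIAR) silence translation and assemble stress granules. In the mouse heart HuR has been tied to hypertrophic growth. CPEB4, the protein encoded by the siRNA target here, binds a different 3′ element, the cytoplasmic polyadenylation element. Through this element CPEB4 controls poly(A) tail length and protein synthesis.

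The genes described are Zfp36l1, Zfp36, Zfp36l2, Khsrp, Hnrnpd, Elavl1, Tia1 and Tial1, taken by exact match of the gene symbol in the count files. All 8 were found, each as 1 gene, among 22250 genes. The set was chosen by function but with the footprint differences between Cpeb4 siRNA and control siRNA already known, that of Zfp36l1 above all, so these differences are described without a test. Ribosome footprints came from ventricular cardiomyocytes of Wistar rats 1 to 2 days old, a bulk primary culture, after 72 h with an siRNA against Cpeb4 (siCpeb4, 2 libraries) or with a control siRNA (2 libraries). For all 4 libraries the growth protocol also names 250 nM Torin1 for 24 h, an inhibitor of the mTOR kinase, without saying which samples received it. Whether the replicates were separate cultures is not stated, and the p-values then reflect the spread of these libraries alone, which may be technical.

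Gene counts summed to 4889212 and 5910911 in siCpeb4 replicates 1 and 2, and to 5863879 and 3554011 in control replicates 1 and 2. The siRNA target Cpeb4 had 8.18 and 9.98 CPM (gene counts scaled to equal library totals) in siCpeb4 libraries, against 59.9 and 71.2 CPM in control libraries. All 10 cardiomyocyte markers listed were found and tested. Their summed level was 62937 and 57575 CPM in siCpeb4 libraries and 57135 and 61283 CPM in control libraries. Their median log2 fold change, siCpeb4 over control, was -0.1 in the edgeR fit, and none was called at an adjusted p under 0.05. The file names give footprints of 29 to 33 nt for siCpeb4 replicate 2 and of 29 to 34 nt for the others, and call the reads unique. Levels are not compared between genes, because no gene lengths of the build were used.

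Zfp36l1 carried the largest difference of the 8 genes. It had 815 and 921 counts in siCpeb4 replicates 1 and 2, against 479 and 307 counts in control replicates 1 and 2. Scaled to the library total, this was 167 and 156 CPM in siCpeb4 libraries, against 81.7 and 86.4 CPM in control libraries. Both siCpeb4 libraries lay far above both control libraries, and each siCpeb4 library was between 1.80 and 2.04 times each control library. Replicates of a group differed by only 1.07-fold in siCpeb4 and 1.06-fold in control libraries. Zfp36l1 averaged 161 ± 7.69 CPM in siCpeb4 libraries and 84.0 ± 3.32 CPM in control libraries (SD, n = 2 each). The log2 fold change, siCpeb4 over control, was 0.91 ± 0.11 (SE) in the edgeR fit across all genes, with a 95% interval of 0.68 to 1.15. Without any one library it lay between 0.86 and 0.98. It ranked 96 from the top among the log2 fold changes of 11335 genes tested. Since Zfp36l1 was chosen with this difference known, these values only describe the difference and may overstate its size.

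Zfp36, which encodes tristetraprolin, differed by much less. It had 52.4 and 55.2 CPM in siCpeb4 libraries, against 45.9 and 43.3 CPM in control libraries. The groups did not overlap, but the gap between their nearest libraries was small. The means were 53.8 ± 1.97 CPM in siCpeb4 libraries and 44.6 ± 1.80 CPM in control libraries (SD, n = 2 each), and the log2 fold change was 0.24 ± 0.13 (SE). Its 95% interval ran from -0.03 to 0.51, so a 1.42-fold higher level and a level slightly below control both lie within it.

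Zfp36l2 had 0 counts in all 4 libraries. A count of 0 allows up to 3 counts, which is 0.614 and 0.508 CPM in siCpeb4 libraries and 0.512 and 0.844 CPM in control libraries, for counting error only. A 0 here does not show that the gene was silent. In the same files the collagen gene Col1a2 was also listed at 0 in every library, while Col1a1 had 6072 and 5374 CPM in siCpeb4 libraries and 8587 and 7867 CPM in control libraries. Of all genes in the files, 34.8% were at 0 in every library. RefSeq annotation of the GRCr8 assembly names a pseudogene of Zfp36l2, and reads that match a copy equally well are lost when only unique matches are kept. The part of this in the 0 was not tested.

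**Figure D1:**
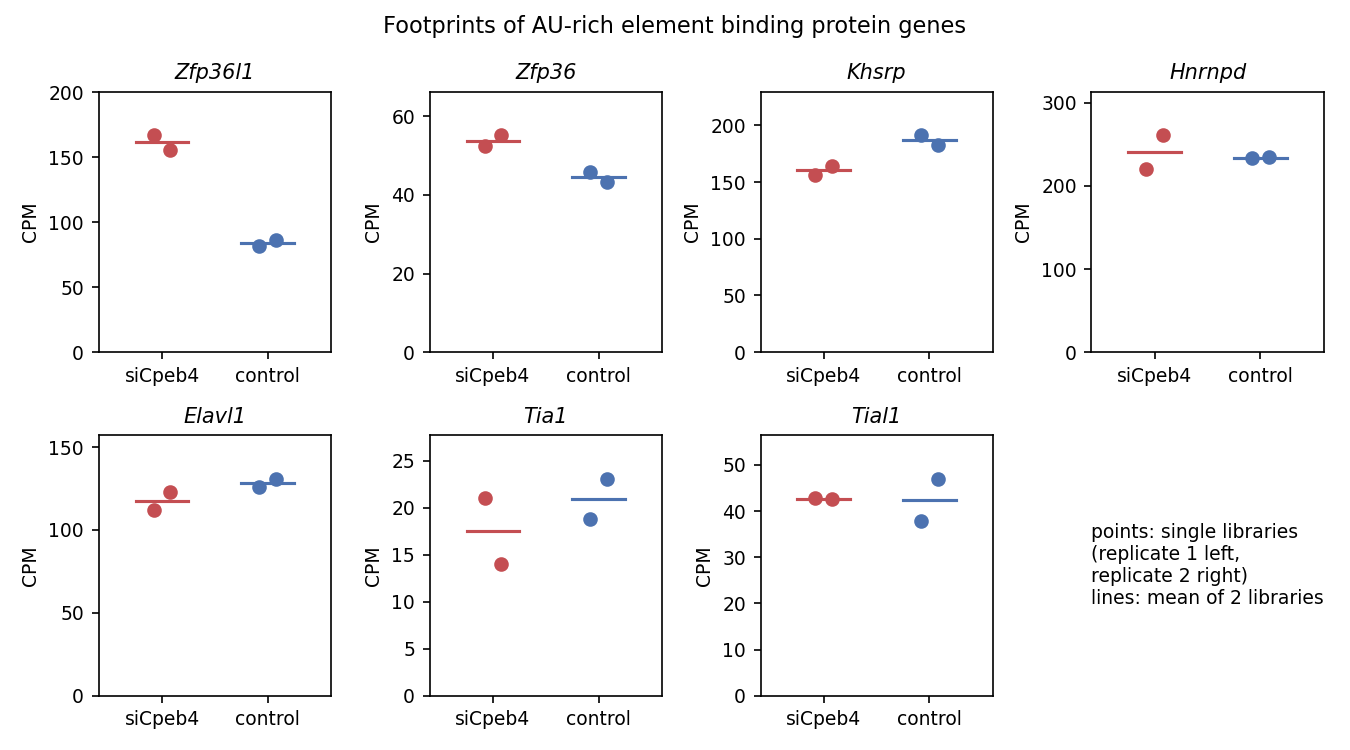
Footprint level in CPM (y axis, from 0, a scale of its own in each panel) for the 7 genes with counts, with siCpeb4 libraries left and control libraries right. Points are single libraries and lines are means of 2 libraries. Zfp36l1 lies at 167 and 156 CPM in siCpeb4 libraries, against 81.7 and 86.4 CPM in control libraries, while the groups of Hnrnpd, Tia1 and Tial1 overlap.

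Within the ZFP36 family, Zfp36l1 made up a larger part of the footprints in siCpeb4 libraries. Its share of the summed Zfp36, Zfp36l1 and Zfp36l2 counts is a ratio within a library and does not depend on scaling between libraries. Zfp36l1 made up 76.1% of 1071 counts in siCpeb4 replicate 1 (95% Wilson interval 73.5 to 78.6%) and 73.9% of 1247 counts in siCpeb4 replicate 2 (71.3 to 76.2%). In control replicate 1 it made up 64.0% of 748 counts (60.5 to 67.4%), and in control replicate 2 it made up 66.6% of 461 counts (62.2 to 70.7%). The mean was 75.0 ± 1.58% in siCpeb4 libraries and 65.3 ± 1.81% in control libraries (SD, n = 2 each), a difference of 9.66 percentage points that lay between 8.38 and 10.9 without any one library. Since Zfp36l2 had no counts, this share compares Zfp36l1 with Zfp36 alone, and it is a share of counts that is not corrected for gene length.

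**Figure D2:**
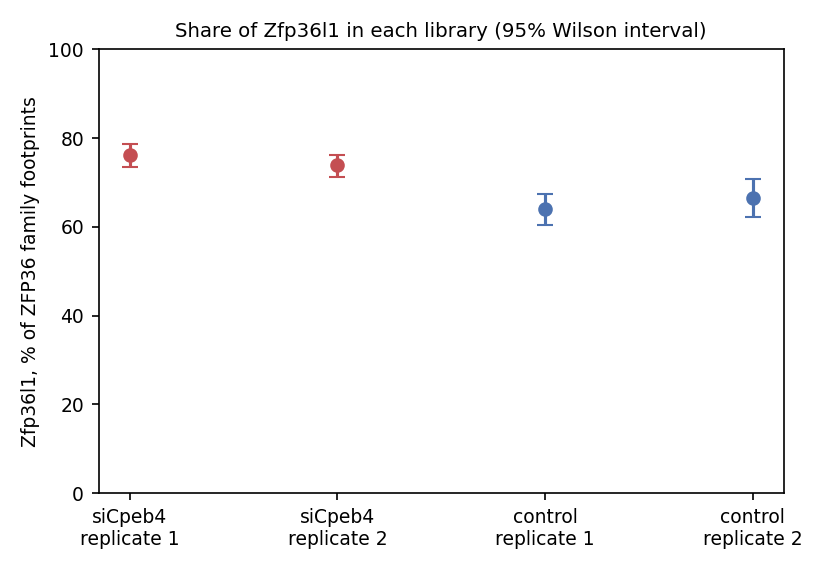
Share of Zfp36l1 in the summed counts of the ZFP36 family (y axis, percent) in each library, with 95% Wilson intervals for counting error. The siCpeb4 libraries lie at 76.1% and 73.9%, against 64.0% and 66.6% in the control libraries.

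Khsrp, the other decay-promoting gene of the set, was lower in siCpeb4 libraries by a small amount. It had 156 and 164 CPM in siCpeb4 libraries, against 191 and 183 CPM in control libraries, and the groups did not overlap. The means were 160.2 ± 5.93 CPM in siCpeb4 libraries and 187 ± 6.05 CPM in control libraries (SD, n = 2 each). The log2 fold change was -0.25 ± 0.11 (SE), with an unadjusted 95% interval of -0.47 to -0.03, and it was not called over all genes. The estimates for Zfp36 and Khsrp, both decay-promoting, lay on opposite sides of 0, and the interval of Zfp36 includes 0.

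Hnrnpd, which encodes the AUF1 isoforms, was level between the groups. It had 220.5 and 261 CPM in siCpeb4 libraries, against 233 and 234 CPM in control libraries. Both control libraries lay inside the range of the siCpeb4 libraries, which differed from each other by 1.18-fold (exact 95% interval 1.09 to 1.28 for counting error). Its log2 fold change was 0.01 ± 0.11 (SE), with a 95% interval of -0.21 to 0.23. It was -0.10 without siCpeb4 replicate 2 and 0.12 without siCpeb4 replicate 1, so it has no settled direction.

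Elavl1, the gene of the stabilising protein HuR, had 112 and 123 CPM in siCpeb4 libraries, against 126 and 131 CPM in control libraries. The siCpeb4 libraries were the lower ones, but siCpeb4 replicate 2 and control replicate 1 were close together. Its log2 fold change was -0.15 ± 0.11 (SE), with a 95% interval of -0.38 to 0.08. Set against this gene within a library, Zfp36l1 had 1.49 and 1.27 counts per Elavl1 count in siCpeb4 libraries, and 0.649 and 0.660 in control libraries. The corresponding ratios to Khsrp were 1.07 and 0.948 in siCpeb4 libraries, and 0.427 and 0.473 in control libraries. Elavl1 and Khsrp were themselves lower in siCpeb4 libraries, which raises the ratios to them there. Ratios to Hnrnpd, which was level, were 0.756 and 0.598 in siCpeb4 libraries, and 0.35 and 0.369 in control libraries. All of these are ratios of counts, not corrected for gene length, and they restate the difference for which Zfp36l1 was chosen.

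The translational silencers Tia1 and Tial1 were the least precisely measured. Tia1 had 103 and 83 counts in siCpeb4 libraries and 110 and 82 counts in control libraries. This was 21.1 and 14.04 CPM in siCpeb4 libraries, against 18.8 and 23.1 CPM in control libraries, and the groups overlapped. The siCpeb4 replicates differed by more than counting error, with replicate 2 at 0.667 times replicate 1 (exact 95% interval 0.493 to 0.899). The log2 fold change of Tia1 was -0.28 ± 0.22 (SE). It was -0.59 without siCpeb4 replicate 1, 0.02 without siCpeb4 replicate 2, -0.44 without control replicate 1 and -0.13 without control replicate 2, so its size and sign rest on single libraries.

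Tial1 had 42.7 and 42.6 CPM in siCpeb4 libraries, against 37.9 and 47.0 CPM in control libraries. The siCpeb4 libraries were almost equal and lay between the control libraries. The control replicates differed by slightly more than counting error, with replicate 2 at 1.24 times replicate 1 (exact 95% interval 1.01 to 1.52). Its means were 42.7 ± 0.0807 CPM in siCpeb4 libraries and 42.4 ± 6.46 CPM in control libraries (SD, n = 2 each). The log2 fold change of Tial1 was 0.00 ± 0.14 (SE), with a 95% interval of -0.31 to 0.30. It was -0.18 without control replicate 1 and 0.15 without control replicate 2. Other fits that kept every library gave -0.03 to 0.03, so it has no settled direction.

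**Figure D3:**
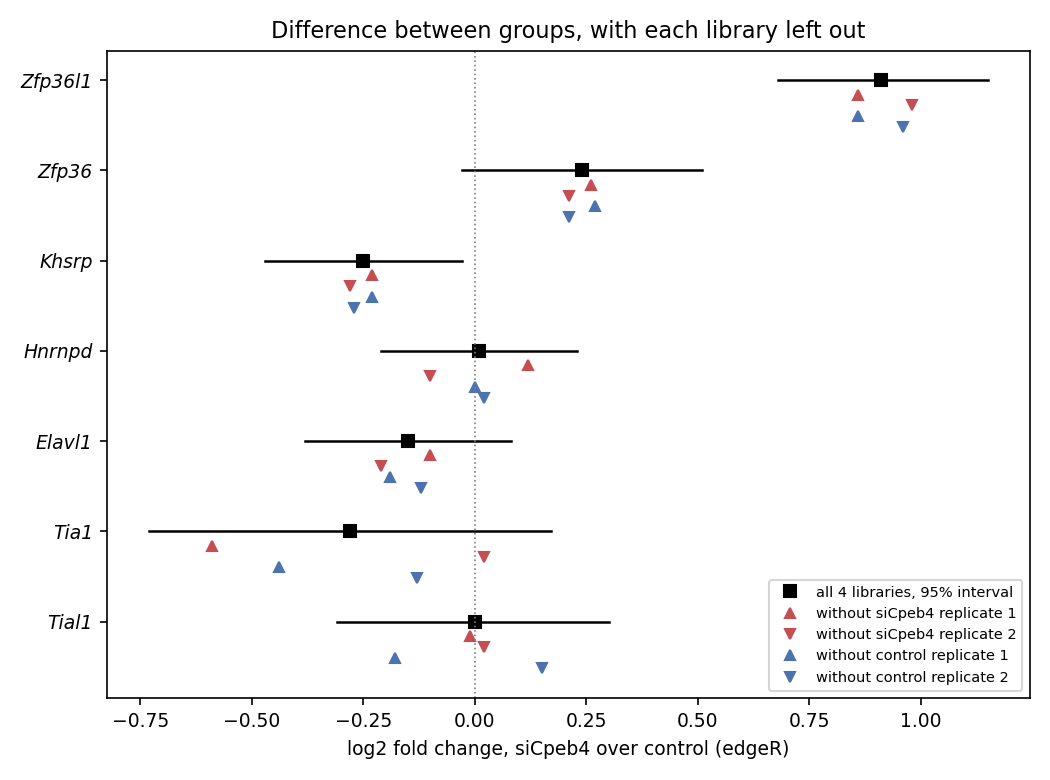
Log2 fold change, siCpeb4 over control, from edgeR (x axis) for the 7 genes with counts. Squares use all 4 libraries, with lines for the unadjusted 95% interval, and triangles leave out 1 library each. Zfp36l1 stays between 0.86 and 0.98, whereas Hnrnpd, Tia1 and Tial1 fall on both sides of 0.

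Of the 7 genes that passed the low-count filter, the edgeR fit called 1 higher in siCpeb4 libraries, Zfp36l1, and none lower. Over all genes tested 3.41% were called, 1.54% higher and 1.87% lower. The choice of genes used this contrast, so nothing is read from the count. The CPM of the groups did not overlap for 4 of the 7 (Zfp36l1, Zfp36, Khsrp and Elavl1), against 46.0% of all genes tested. The log2 fold change was positive for 3 and negative for 4, against 49.5% positive and 50.5% negative over all genes tested. Its median was 0.00, as over all genes. Without Zfp36l1 the median of the other 6 was -0.08. The summed level of the 8 genes was 771 and 816 CPM in siCpeb4 libraries, against 735 and 748 CPM in control libraries. Without Zfp36l1 the sum was 605 and 660.0 CPM in siCpeb4 libraries and 653 and 661 CPM in control libraries, where the groups overlapped.

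RefSeq lists pseudogenes under the gene's own symbol with a suffix for 4 of the 8 genes, Zfp36l2, Elavl1, Hnrnpd and Tial1. It lists none of this kind for Zfp36l1, Zfp36, Khsrp and Tia1, and pseudogenes under other symbols were not searched for. Whether reads of any of the 8 genes were lost to such copies was not tested. The libraries hold footprints only, so more mRNA and more ribosomes per mRNA cannot be told apart for Zfp36l1. In a bulk culture, fewer cells of a type and less RNA per cell cannot be told apart either. The 8 fibroblast markers summed to 9712 and 9170.0 CPM in siCpeb4 libraries, against 13079 and 12048 CPM in control libraries, with Col1a2 at 0. Of 7 tested, 1 was called lower (Col1a1), and their median log2 fold change was -0.25. Col1a1 and Col3a1 made up most of the sum. Col3a1 had 2899 and 2847 CPM in siCpeb4 libraries and 3400.5 and 3304 CPM in control libraries. Pdgfra was lower in both siCpeb4 libraries, while the groups of Dcn, Lum, Postn and Tcf21 overlapped. The log2 fold change was positive for Tcf21 (0.10) and negative for the others tested. The part of the fibroblast markers in the difference of Zfp36l1 was not tested. The summed endothelial markers were at 126 and 133 CPM in siCpeb4 libraries and at 151 and 123 CPM in control libraries. Leukocyte markers were at 349 and 431 CPM in siCpeb4 libraries and at 475 and 322 CPM in control libraries. Smooth muscle markers were at 5617 and 5985 CPM in siCpeb4 libraries and at 5294 and 5348 CPM in control libraries. The smooth muscle sums did not overlap between the groups, and the median log2 fold change of these markers was 0.05. No marker of these 3 types was called.

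The genes whose pattern over the 4 libraries was most like that of Zfp36l1 were taken by the smallest root mean square difference of centred log2 CPM. They were Adamts3, a metalloproteinase (0.0282), the transcription factor Grhl3 (0.029), the zinc transporter Tmem163 (0.0297), Id2, an inhibitor of helix-loop-helix transcription factors (0.0342), and Socs6, of the suppressor of cytokine signalling family (0.040). Id2 had 74.7 and 70.5 CPM in siCpeb4 libraries and 38.5 and 40.5 CPM in control libraries. Socs6 had 32.7 and 32.7 CPM in siCpeb4 libraries and 16.7 and 18.0 CPM in control libraries. Grhl3 had at most 3.27 CPM and Tmem163 at most 4.91 CPM in any library, so their patterns rest on few counts. With 4 libraries in 2 groups, a like pattern says little more than a like fold change.

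Genes around these proteins were read from 6 lists of 184 genes in all, of which 157 were tested. The edgeR test (adjusted p under 0.05 over all genes) called 4 higher and 3 lower, 4.46% of those tested, against the 3.41% over all genes given above. Their median log2 fold change was 0.02. The lists were drawn up with earlier results of these data known, so nothing is read from the share called.

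The deadenylation list holds the CCR4-NOT complex, which the ZFP36 proteins recruit, with the PAN2-PAN3 deadenylase, PARN, TOB and BTG adaptors and poly(A) binding proteins. Of 20 members tested, 1 rose and 1 fell, and the median was 0.03. Cnot6l, a catalytic deadenylase subunit of CCR4-NOT, fell to 33.5 and 33.5 CPM in siCpeb4 libraries, against 58.7 and 51.8 CPM in control libraries. Its log2 fold change was -0.76 ± 0.14 (SE; edgeR adjusted p = 0.00201), and its call held under all 14 alternative fits. Tob1, an antiproliferative adaptor that links RNA-binding proteins to this complex, rose to 178 and 155 CPM in siCpeb4 libraries, against 109 and 125 CPM in control libraries (edgeR adjusted p = 0.0242). Its call ended without control replicate 1 (edgeR adjusted p = 0.35), without siCpeb4 replicate 1 (0.13) and in DESeq2 (adjusted p = 0.054). Of 33 decapping and exosome genes tested, edgeR called none and the median was 0.03. The decapping activator Dcp1a (0.39 ± 0.15, SE; edgeR adjusted p = 0.172) and Lsm4, of the ring that binds decaying mRNA ends (-0.33 ± 0.13; adjusted p = 0.19), had the smallest p.

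Among 27 tested genes for kinases, phosphatases and phosphoserine-binding proteins that act on ZFP36 proteins or KHSRP, 1 rose and 1 fell, with a median of 0.07. Mapkapk2 encodes MK2, the kinase downstream of p38 that phosphorylates tristetraprolin and thereby restrains its decay activity. It rose to 196 and 168 CPM in siCpeb4 libraries, against 130.3 and 120.2 CPM in control libraries, a log2 fold change of 0.50 ± 0.11 (SE; edgeR adjusted p = 0.0136). The call ended without control replicate 2 (edgeR adjusted p = 0.12) or siCpeb4 replicate 1 (0.093). Ywhah, one of the 14-3-3 proteins that bind phosphorylated ZFP36 proteins, fell to 283 and 269.7 CPM in siCpeb4 libraries, against 372 and 346 CPM in control libraries (log2 fold change -0.41 ± 0.10, SE; edgeR adjusted p = 0.0249). Its call ended without control replicate 1 (edgeR adjusted p = 0.27), control replicate 2 (0.086) or siCpeb4 replicate 2 (0.12).

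Of 20 tested genes in a broad list of relatives, AU-rich element binders and other RNA-binding proteins, 1 fell and none rose. The median was 0.05. The member that fell was Fubp3, a KH-domain relative of Khsrp, with 40.1 and 52.8 CPM in siCpeb4 libraries, against 69.4 and 64.7 CPM in control libraries (log2 fold change -0.56 ± 0.14, SE; edgeR adjusted p = 0.0249). Its call ended without control replicate 1 (edgeR adjusted p = 0.17), without siCpeb4 replicate 1 (0.16), after thinning to the smallest library (0.057) and in DESeq2 (adjusted p = 0.11). Of 20 stress granule genes tested, where TIA1 and TIAL1 act, edgeR called none. The kinase gene Eif2ak2 (0.37 ± 0.12, SE; edgeR adjusted p = 0.102) and the helicase gene Ddx3x (0.26 ± 0.10; adjusted p = 0.179) had the smallest p. Leaving out 1 library turned the sign of the median of 3 lists. That of stress granule genes was -0.01 and lay between -0.03 and 0.05, that of deadenylation genes was -0.02 without siCpeb4 replicate 2, and that of decapping and exosome genes was -0.03 without control replicate 1 and -0.04 without siCpeb4 replicate 1.

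The last list holds mRNAs known to carry AU-rich elements in mammals, the kind of mRNA that these proteins bind. Of 38 tested, 2 rose and none fell in the edgeR fit. These counts changed with single libraries: 1 was called higher and 3 lower without siCpeb4 replicate 2, 1 higher and 1 lower without control replicate 2, 2 higher and 0 lower without siCpeb4 replicate 1, and 0 in either direction without control replicate 1. The log2 fold change was below 0 for 25, with a median of -0.09, where 50.5% of all genes tested were below 0. With each library left out, 22 to 27 of the 38 were negative and the median lay between -0.12 and -0.05. These ranges come from the same 4 libraries, and the list was drawn up with earlier results known, so nothing is read from the signs. The part of the lower fibroblast markers in the signs was not tested. Hif1a, the hypoxia-inducible transcription factor, rose to 422 and 445 CPM in siCpeb4 libraries, against 300.3 and 316 CPM in control libraries, a log2 fold change of 0.46 ± 0.10 (SE; edgeR adjusted p = 0.00948). The glucose transporter gene Slc2a1 rose to 179 and 207 CPM in siCpeb4 libraries, against 136 and 136 CPM in control libraries (edgeR adjusted p = 0.0156). Both calls ended without control replicate 1, at an edgeR adjusted p of 0.17 for Hif1a and 0.15 for Slc2a1. The Slc2a1 call also ended without control replicate 2 (edgeR adjusted p = 0.091) and siCpeb4 replicate 2 (0.12).

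**Figure D4:**
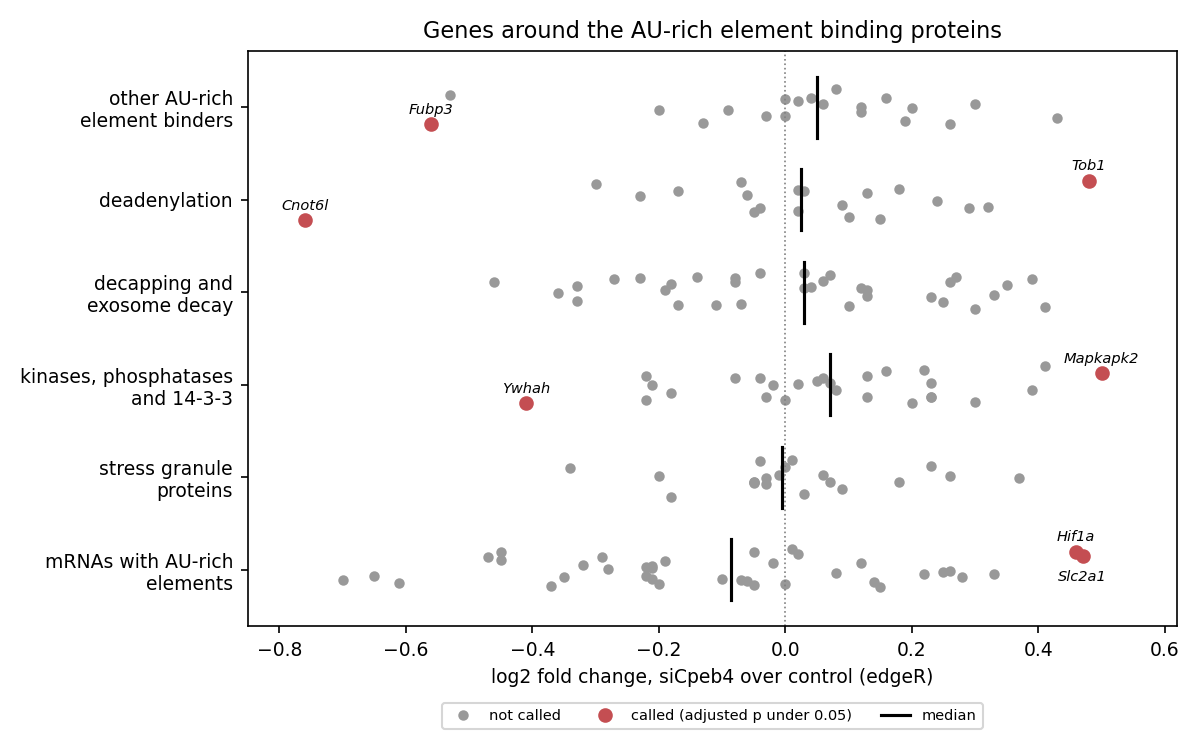
Log2 fold change, siCpeb4 over control, from edgeR (x axis) for the tested genes of the 6 lists (rows). Grey points were not called, red points were called at an adjusted p under 0.05 over all genes, and black bars are list medians. The 7 named genes were called, 4 above 0 and 3 below, and the list medians lie between -0.09 and 0.07.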

How the data were processed

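The deposited values are whole-number counts of reads for each Ensembl gene, to which no scaling was applied. HTSeq 0.12, STAR 2.7 and Bowtie2 and the build Rnor_6.0 are named in the submitters' processing notes. Strandedness of the counting and the task of each tool were not given in the sources used here. Per the labels, the libraries are ribosomal footprints, although the molecule field reads polyA RNA. The 5 HTSeq summary rows stayed out of totals. Of the reads counted, 4.42% to 4.63% had no feature.

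The main fit was edgeR 4.0.16 (quasi-likelihood F-test) in R 4.3.3 with TMM, filterByExpr (minimum count 10), a design with the group alone and p-values adjusted by Benjamini-Hochberg over 11335 genes, called under 0.05. SE came from the F statistic. CPM used library totals. The 95% intervals of counts cover counting error only. Alternatives were DESeq2 1.42.0, limma-voom (limma 3.58.1), other scalings, filters and thresholds, thinning, a replicate block and each library left out.

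The genes and lists were chosen with earlier results of these data known. Named genes are the 8 genes, Cpeb4, every called list member or, where none was called, the 2 with the smallest p, and the 5 with the pattern most like Zfp36l1. The result of 1 listed gene is not reported here, and that gene is out of all list counts. Col1a1, Col1a2 and the other fibroblast markers were named after their values were seen. Pseudogene names are from RefSeq, assembly GRCr8.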

Additional observations from a re-analysis of the deposited data

How the results depend on the processing

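The direction of Zfp36l1, Zfp36, Khsrp and Elavl1 was kept under all 14 alternative fits. With 1 library left out, log2 fold changes lay between 0.86 and 0.98 for Zfp36l1 and between -0.18 and 0.15 for Tial1. The count of all genes called was 386, with 174 higher and 212 lower; with library totals in place of TMM the split was 185 higher and 163 lower. The count was 192 in DESeq2, 606 without the low-count filter and 629 at an adjusted p under 0.10. It lay between 212 (without control replicate 1) and 324 with 1 library left out. The count of listed genes called was 7, and it lay between 2 (without control replicate 1) and 9 with 1 library left out. The share of Zfp36l1 in the family differed by 9.88 percentage points with pooled counts. Its share of all 8 genes has another base and was 21.6% and 19.1% in siCpeb4 libraries. In control libraries that share was 11.1% and 11.6%, a difference of 9.02 percentage points between the group means. Fits with 1 library left out take the remaining library of the reduced group to be as variable as the pair in the other. The replicate block gave 400 calls over all genes and 8 over the lists. The deviations of same-numbered libraries from their group means correlated weakly and negatively (r = -0.11 across genes), so crossed numbers were added after seeing the data, with 479 and 9 calls. The labels do not say that a number marks a shared culture. Tia1 had the fewest counts of the 7 genes, 82 to 110 per library, and the largest SE, 0.22. Its siCpeb4 replicates also differed by more than counting error, and depth and replicate spread were not separated.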
